A study of Mus musculus with 15 samples.

Results

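Disulfidptosis is a form of cell death in which disulfide bonds accumulate in proteins of the actin skeleton when the cell runs out of reducing power. The 8 genes described here are those commonly taken as its core, with the complex I subunits of the usual set left out: SLC7A11, SLC3A2, RPN1, NCKAP1, GYS1, LRPPRC, NUBPL and OXSM. They were found by symbol in both deposited count tables, each symbol on a single row, and make up 8 of the 56967 gene names used. All 8 had enough counts to be tested in the 15 libraries.

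Messenger RNA was sequenced in 5 groups of 3 libraries, all labelled MDA-MB-468, an established human line of invasive breast carcinoma kept in DMEM with serum. The NC group carried a control hairpin, shSHCBP1_1 and shSHCBP1_2 carried either of 2 short hairpin RNAs against SHCBP1, and 2 further groups carried either of 2 hairpins against TMEM45A. These last are called set 4 and set 2 after the numbers in the column names, because the labels number them differently and set 4 was matched to its label by elimination. No glucose withdrawal, inhibitor or other treatment is named for any group, so the levels are those of cells in culture medium, and cell death was not measured in these files. Separate cultures are not named for the 3 libraries within a group, so p-values here measure only the spread among libraries, which may be technical.

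Several facts of the whole series bear on the values. Library totals ran from 13780294 to 16484000 counts. NC stands in the same table as the shSHCBP1 libraries and the shTMEM45A libraries stand in the other, so for shTMEM45A against NC the hairpin target and the table cannot be told apart. The SHCBP1 transcript was at 44.1 CPM (counts relative to a common library size, scaled by TMM) in NC and at 47.1 and 44.3 CPM in the libraries labelled shSHCBP1, whereas TMEM45A was at 26.6 CPM in NC and at 17.8 and 19.4 CPM in sets 4 and 2. The basal keratins KRT5, KRT6A, KRT6B and KRT16 and the basal factor TP63 had 0 counts in all 15 libraries, although the line named is a basal-like one. Other genes of the same basal list were present: FOXC1 was at 93.7 CPM and EGFR at 16.3 CPM in NC. Neurofilament transcripts mark neurons and are also known from embryonic kidney lines. NEFL and NEFM were high, at 175.8 and 254.5 CPM in NC, while NEFH was low, at 0.51 CPM. The neurofilament and embryonic kidney list was summed as CPM of unscaled library totals, as were the lists that follow. Its sum ran from 506.4 to 570.8 CPM in the NC and shSHCBP1 libraries and from 190.1 to 239.9 CPM in the shTMEM45A libraries. Most of it was NEFL and NEFM. The means of LHX1, LIN28B, PAX2 and WT1 were also lower in sets 4 and 2 than in NC. INA, of the same list, was at 42.7 CPM in NC, 39.1 CPM in set 4 and 50.7 CPM in set 2. The summed level of the basal list ran from 112.7 to 131.3 CPM in the NC and shSHCBP1 libraries and from 70.1 to 101.0 CPM in the shTMEM45A libraries. The luminal list ran from 144.7 to 184.4 CPM and from 271.6 to 312.3 CPM. Most of this list was KRT8 and KRT18, at 79.3 and 44.6 CPM in NC. Both had higher means in sets 4 and 2, as did the less abundant EPCAM, CLDN4 and ELF3. CDH1, of the same list, was lower in sets 4 and 2 than in NC, at 7.91 and 7.16 CPM. KRT7 and KRT19 had at most 5 counts in any library. The fibroblast and endothelial list ran from 48.5 to 61.1 CPM and, in the shTMEM45A libraries, from 26.6 to 32.9 CPM. In NC most of the latter was COL1A1, at 47.3 CPM, and COL1A2 and DCN had 0 counts. PTPRC, the defining immune marker, had 0 counts throughout. Changes also moved with transcript length: across the 12700 of the 19051 tested genes with a mouse gene of the same name, the Spearman correlation of the log2 change with the mouse transcript length was -0.48 for the mean of both shTMEM45A sets and -0.04 for shSHCBP1, as a description across genes, which are not independent. The part of these shifts in the values below was not tested.

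SLC7A11 and SLC3A2 are the light and heavy chain of system xc-, which brings in cystine and exports glutamate. Cystine must be reduced to cysteine with NADPH, most of which comes from glucose. A cell with much SLC7A11 that is deprived of glucose therefore spends its NADPH and accumulates disulfides, and cross-linked actin proteins then pull away from the membrane. In the genetic screens behind the set, loss of SLC7A11, SLC3A2, the oligosaccharyltransferase subunit RPN1 or the WAVE complex member NCKAP1 protected such cells, and loss of glycogen synthase GYS1 or of the mitochondrial genes LRPPRC, NUBPL and OXSM made them more sensitive. Both hairpin targets come, per the series title, from a prognosis model built on this form of death.

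Against NC, SLC3A2 and OXSM were higher and LRPPRC was lower in all 4 hairpin sets. SLC7A11 was higher in all 4 and passed the test in 3 of them. NCKAP1, GYS1 and NUBPL were lower in both shTMEM45A sets and did not pass the test in either shSHCBP1 set. RPN1 fell slightly in the libraries labelled shSHCBP1 and rose slightly in the shTMEM45A libraries.

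In counts, 4 of the 8 genes passed in shSHCBP1_1, where 19.9% of all 19051 genes tested passed (edgeR, adjusted p under 0.05). In shSHCBP1_2 5 passed, beside 31.1% of all genes. All 8 passed in set 4, beside 74.4% of all genes, and in set 2, beside 75.9%. With so many genes past the threshold in the shTMEM45A libraries, the passing of all 8 is close to the background, and the sizes of the changes say more than the count. The median log2 change of the 8 was -0.05 for the mean of both shSHCBP1 sets (0.01 over all genes; 5 of the 8 passed, beside 31.1%) and -0.17 for the mean of both shTMEM45A sets (-0.05 over all genes; 8 passed, beside 78.6%). All comparisons with NC share the same 3 control libraries. For the counts by direction that follow, 15.2% of all genes rose and 15.9% fell for shSHCBP1, and 37.3% rose and 41.3% fell for shTMEM45A. The medians of the 8 hide opposite moves, as the plot of the changes shows.

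**Figure D1:**
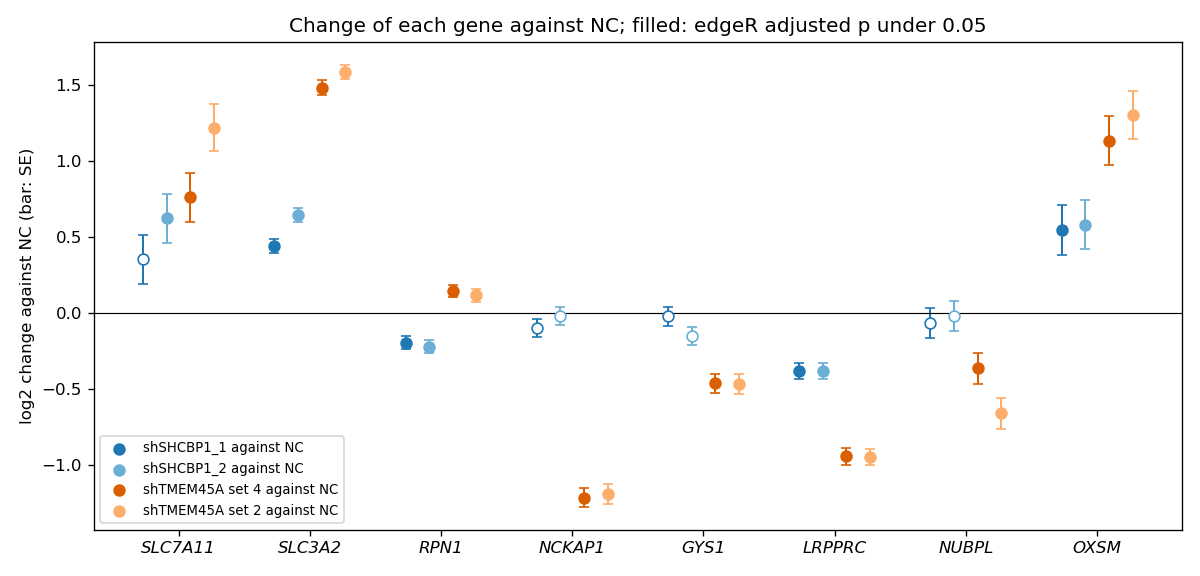
Log2 change of each of the 8 genes against NC in the 4 hairpin sets (points) with its standard error (bars); filled points passed the edgeR test at an adjusted p under 0.05 and open points did not. SLC7A11, SLC3A2 and OXSM lie above 0 in every set, LRPPRC lies below 0 in every set, and NCKAP1 lies near 0 in the shSHCBP1 sets and at -1.22 and -1.19 in the shTMEM45A sets.

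The light chain SLC7A11 was a low transcript. Its 3 NC libraries stood at 7.29, 6.58 and 6.43 CPM, from 105, 94 and 93 counts. In shSHCBP1_1 the values were at 8.82, 8.75 and 8.36 CPM and the shSHCBP1_2 libraries at 9.33, 11.1 and 10.9 CPM. Neither of these groups overlapped NC or the other. In set 4 the values were at 12.1, 12.2 and 10.1 CPM, and set 2 spread widely, at 16.8, 18.9 and 11.6 CPM. Each shTMEM45A library was above each NC library, but set 4 overlapped both shSHCBP1_2 and set 2.

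The rise of SLC7A11 did not pass in shSHCBP1_1, where its log2 change was 0.35 (SE 0.16, edgeR adjusted p = 0.127), although the call was made with library totals alone (adjusted p = 0.024) and in a fit of those groups alone (adjusted p = 0.0346). It passed in shSHCBP1_2, at 0.62 (SE 0.16, edgeR adjusted p = 0.00306). In set 4 the change was 0.76 (SE 0.16, edgeR adjusted p = 9.3e-05) and in set 2 it was 1.22 (SE 0.16, edgeR adjusted p = 3.2e-08), so that the mean over both shTMEM45A sets was 1.99-fold the NC level. Strand is not kept by this sequencing kit, and reads of the antisense gene SLC7A11-AS1 cannot be told apart from those of SLC7A11 where they overlap. SLC7A11-AS1 itself had 2 to 5 counts in the NC libraries, 4 to 13 in the shSHCBP1 libraries and at most 1 in the shTMEM45A libraries.

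The heavy chain SLC3A2, which carries SLC7A11 and several other light chains to the membrane, had the largest change of the 8 in both shTMEM45A sets and in shSHCBP1_2, while OXSM had the largest in shSHCBP1_1 (0.55 against 0.44 on the log2 scale). NC stood at 185.5, 179.0 and 192.1 CPM. With shSHCBP1_1 the libraries stood at 253.4, 252.9 and 249.4 CPM and the shSHCBP1_2 libraries at 292.9, 291.1 and 286.3 CPM. The 2 shSHCBP1 groups were tight and stood apart from NC and from each other. The set 4 libraries stood at 546.1, 509.9 and 501.4 CPM and set 2 at 587.6, 519.5 and 566.6 CPM, overlapping each other and far above all other groups. The log2 change was 0.44 (SE 0.05, edgeR adjusted p = 6.5e-08) in shSHCBP1_1, 0.64 (SE 0.05, edgeR adjusted p = 1.2e-11) in shSHCBP1_2, 1.48 (SE 0.05, edgeR adjusted p = 4.5e-22) in set 4 and 1.59 (SE 0.05, edgeR adjusted p = 7.0e-23) in set 2. The mean over both sets was 1.46-fold the NC level for shSHCBP1 and 2.90-fold for shTMEM45A, and both directions and calls held under every alternative that gave a test.

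**Figure D2:**
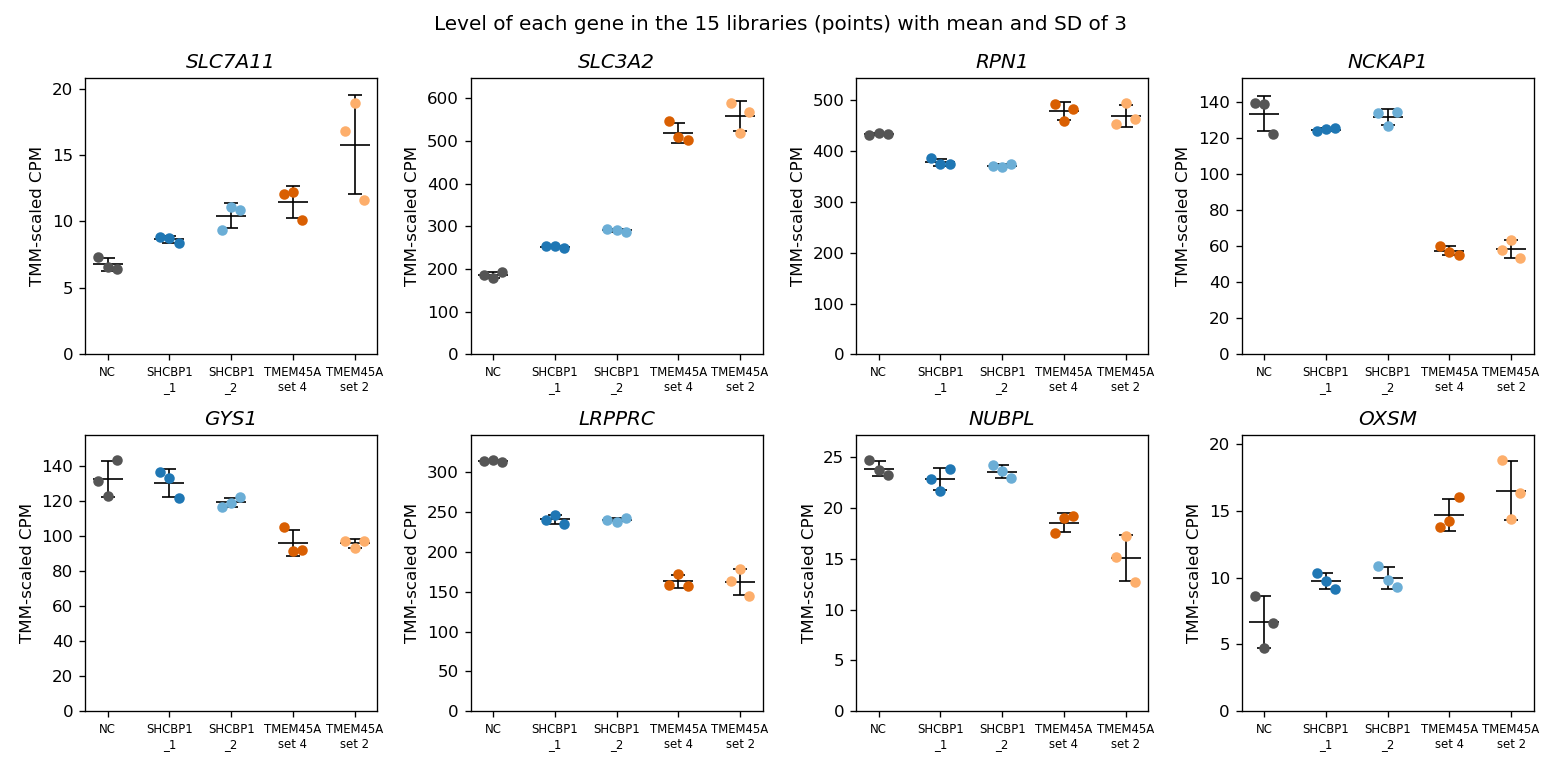
TMM-scaled CPM of each of the 8 genes in every library (points), with the mean and SD of the 3 libraries of each group (bars); each panel starts at 0 and has its own scale. SLC3A2 climbs in steps from a mean of 185.5 CPM in NC to 557.9 CPM in set 2, LRPPRC descends from 313.5 to 162.3 CPM, and NCKAP1 and NUBPL overlap NC in the shSHCBP1 sets and lie below it in the shTMEM45A sets.

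Because both chains come from the same library, their ratio does not depend on how library sizes were scaled. NC had 3.93, 3.68 and 3.35 SLC7A11 reads per 100 SLC3A2 reads. The mean was 3.43 ± 0.0679 (SD, n = 3) in shSHCBP1_1 and 3.59 ± 0.353 in shSHCBP1_2, within the range of NC for the first and overlapping it for the second. The log2 ratio over both shSHCBP1 sets differed from NC by -0.06 (exact permutation test, two-sided p = 0.5), a difference within the spread of the NC libraries.

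In the shTMEM45A libraries there were fewer light chain reads for each heavy chain read. Set 4 had 2.21, 2.40 and 2.01 SLC7A11 reads per 100 SLC3A2 reads, all below NC. Set 2 had 2.86, 3.63 and 2.05, with 1 library inside the NC range. Over both sets the log2 ratio differed from NC by -0.56 (exact permutation test, two-sided p = 0.0476, where 0.0238 is the smallest p that 6 against 3 libraries allow). Without any single library the difference ran from -0.67 to -0.50. The exact p was 0.0357 without set 2 replicate 2, 0.143 without NC replicate 1 or 2, and 0.0714 without any of the other 6, with fewer splits to draw on. A block on the replicate number had to leave out set 4, and the difference for set 2 alone was -0.39. Its exact permutation p of 0.25 is the smallest that 3 paired differences allow, so that test could not pass. The mouse SLC7A11 transcript has 9223 bases and that of SLC3A2 has 2813. With the trend on mouse transcript length subtracted, the log2 change for shTMEM45A was 1.78 for SLC7A11 and 1.52 for SLC3A2, against 0.99 and 1.54 as fitted. This alternative was chosen after seeing the data and covers only 66.7% of the tested genes, so it supports no call. The part of length in the ratio was not tested.

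**Figure D3:**
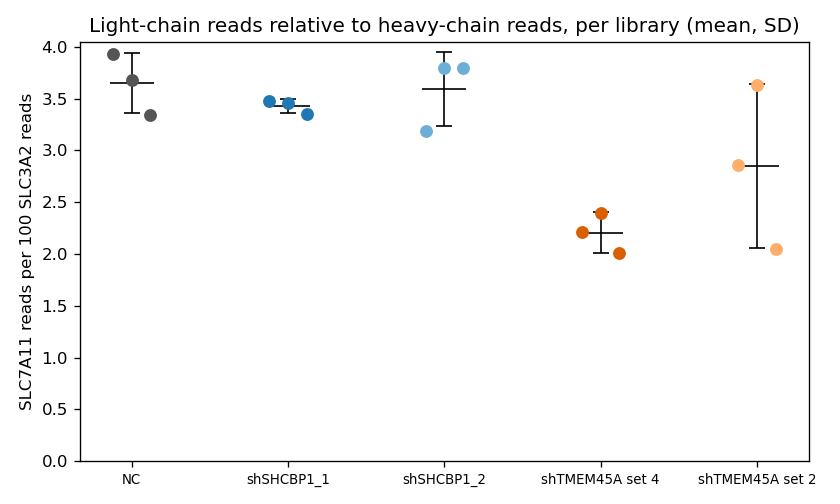
SLC7A11 reads per 100 SLC3A2 reads in each of the 15 libraries (points), with the mean and SD of 3 (bars). The NC and shSHCBP1 libraries lie between 3.19 and 3.93, all 3 libraries of set 4 lie between 2.01 and 2.40, and set 2 spreads from 2.05 to 3.63.

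The other light chains of SLC3A2 did not share the size of its rise. SLC7A5, its light chain for large neutral amino acids, was at 217.1 ± 10.8 CPM in NC, 242.8 ± 7.47 in shSHCBP1_1, 252.7 ± 5.74 in shSHCBP1_2, 194.5 ± 15.7 in set 4 and 201.9 ± 13.4 in set 2. It rose by a log2 change of 0.19 in the mean of both shSHCBP1 sets (edgeR adjusted p = 0.00307), a call lost with RLE size factors (adjusted p = 0.0628). It fell by 0.13 in the shTMEM45A mean (edgeR adjusted p = 0.0154), a call lost without NC replicate 3 (adjusted p = 0.148) or without the set 4 library whose column ends in 2 (adjusted p = 0.0534). The log2 ratio of SLC7A5 to SLC3A2 differed from NC by -0.35 and -1.67 (exact permutation test, p = 0.0238 for each, the smallest these groups allow), a ratio added after the data were seen.

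Of 10 listed partners of SLC3A2 and companion amino acid carriers, 6 had enough counts to be tested. For shSHCBP1, SLC7A5 was the single rise and SLC38A2, a glutamine carrier, the single fall (-0.18, lost without either of 2 libraries, adjusted p = 0.0678 to 0.126). For shTMEM45A, the glutamine carrier SLC1A5 rose by 0.56 and SLC38A2 by 0.19, and SLC7A5 and SLC7A8, another light chain of SLC3A2, fell, SLC7A8 by 0.20. The rise of SLC38A2 was absent with library totals alone, and the fall of SLC7A8 was lost without either of 2 libraries (adjusted p = 0.0532 and 0.0607). The median log2 change of the 6 was -0.02 for shSHCBP1 and 0.03 for shTMEM45A.

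Among 10 listed regulators of SLC7A11, 3 rose and 2 fell in the libraries labelled shSHCBP1, with a median log2 change of 0.02, and 6 rose and 4 fell in the shTMEM45A libraries, with a median of 0.55. NFE2L2, the oxidative stress factor that activates SLC7A11, rose in both, by 0.46 and 0.65. MYC rose by 0.38 for shSHCBP1. ATF4, the amino acid stress factor that activates both chains of the carrier, went separate ways: it was at 731.5 ± 16.1 CPM in NC, 666.4 ± 5.07 and 708.1 ± 11 in the shSHCBP1 sets, and 1966 ± 17.6 and 2085 ± 117.4 in sets 4 and 2. Its rise of 1.47 for shTMEM45A (edgeR adjusted p = 9.9e-26) was large, and its fall of 0.09 for shSHCBP1 (edgeR adjusted p = 0.0322) was lost without any of 6 libraries (adjusted p = 0.052 to 0.153) and turned to 0.06 with library totals alone. ATF3, a repressor of SLC7A11, fell in both, by 0.59 and 1.06. For shTMEM45A, KEAP1, which holds NFE2L2 in check, rose by 0.95, and the histone demethylase gene KDM3B fell by 1.45.

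The genes that spend and supply reducing power shared no common rise. In the list of 22 glutathione, thioredoxin and NADPH genes, 11 fell and 1 rose for shSHCBP1, with a median log2 change of -0.13, a median that became 0.02 with library totals alone. In the shTMEM45A libraries 11 rose and 10 fell, with a median of 0.12, which became -0.07 with library totals alone. CHAC1, which breaks down glutathione and is a target of ATF4, was at 1.34 ± 0.246 CPM in NC and rose in all 4 sets, to 7.11, 11.3, 7.36 and 10.2 CPM, log2 changes of 2.73 and 2.68 for the 2 targets. MTHFD2, a mitochondrial folate enzyme, fell by 0.63 and 0.96. PGLS, an enzyme of the pentose phosphate pathway, rose by 1.65 for shTMEM45A. SRXN1, which repairs oxidised peroxiredoxins, had 181 counts in the 3 NC libraries together but 2 in set 4 and 6 in set 2, and the ratio of set 4 to NC was 0.0115 (exact 95% interval 0.00139 to 0.0423, for counting error only).

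RPN1 is a ribophorin of the oligosaccharyltransferase, which attaches N-glycans to proteins, SLC3A2 among them, in the endoplasmic reticulum. NC stood at 431.3, 435.1 and 433.5 CPM. The shSHCBP1_1 libraries were at 385.9, 374.4 and 374.5 CPM and the shSHCBP1_2 libraries at 369.8, 369.6 and 374.9 CPM. The shSHCBP1 libraries were all below NC and overlapped each other. Set 4 was at 493.6, 459.7 and 482.8 CPM and set 2 at 452.8, 493.8 and 462.6 CPM, all above NC. The log2 changes were small: -0.20 (SE 0.04, edgeR adjusted p = 0.000953) and -0.22 (SE 0.04, edgeR adjusted p = 0.000116) in the shSHCBP1 sets, and 0.14 (SE 0.04, edgeR adjusted p = 0.00278) and 0.12 (SE 0.04, edgeR adjusted p = 0.0129) in sets 4 and 2.

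These calls depend on the scaling. With library totals alone, the fall for shSHCBP1 was -0.05 and no longer passed (adjusted p = 0.266), and the change for shTMEM45A turned to -0.06. Under that scaling the median of all genes was itself at 0.16 for shSHCBP1 and -0.24 for shTMEM45A. RPN1 lay below the first and above the second. Scaling moves all genes by nearly the same amount, so this place relative to the median does not test its direction. The rise in set 2 was also lost without set 2 replicate 2 (0.08, adjusted p = 0.0722) and with no filter on low counts (adjusted p = 0.179).

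Of the other 11 listed subunits of the oligosaccharyltransferase, 9 fell and none rose in the mean of the libraries labelled shSHCBP1, with a median log2 change of -0.22, and a median of -0.06 with 4 lower under library totals alone. The second ribophorin, RPN2, fell by 0.35, DDOST by 0.38, the catalytic subunits STT3A and STT3B by 0.39 and 0.14, while DAD1 was at -0.10 (edgeR adjusted p = 0.106) and KRTCAP2 at 0.15 (edgeR adjusted p = 0.469). The fall of STT3B was lost without either of 2 libraries (adjusted p = 0.0733 and 0.0919). In the shTMEM45A libraries the subunits moved both ways. The catalytic subunits STT3A and STT3B fell by 0.63 and 0.53, DDOST by 0.80 and KRTCAP2 by 0.77, while DAD1, OST4 and TMEM258 rose by 0.99, 1.16 and 1.01. RPN2 was at 0.01 (edgeR adjusted p = 0.807), and in all 4 rose and 6 fell, with a median of -0.35.

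NCKAP1 links the subunits of the WAVE complex, which passes signals from the GTPase RAC1 to the Arp2/3 complex and so builds branched actin. NC stood at 139.4, 139.4 and 122.7 CPM. In shSHCBP1_1 the values were at 124.0, 125.0 and 125.7 CPM and the shSHCBP1_2 libraries at 134.4, 127.1 and 134.4 CPM, all within the range of NC. In set 4 the values were at 60.2, 57.2 and 55.3 CPM and set 2 at 58.1, 63.7 and 53.7 CPM, with every library below all the others. The log2 change was -0.10 (SE 0.06, edgeR adjusted p = 0.275) in shSHCBP1_1 and -0.02 (SE 0.06, edgeR adjusted p = 0.837) in shSHCBP1_2. It was -1.22 (SE 0.06, edgeR adjusted p = 8.0e-17) in set 4 and -1.19 (SE 0.06, edgeR adjusted p = 1.0e-16) in set 2, so that the level over both sets was 0.434 of that in NC. The value of shSHCBP1_1 passed with RLE size factors (-0.16, adjusted p = 0.0468) and with DESeq2 (adjusted p = 0.0313).

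Several other WAVE genes were lower, as NCKAP1 was for shTMEM45A. In the libraries labelled shSHCBP1, 5 of the 10 tested were lower and the other 5 did not pass, with a median log2 change of -0.18. ABI2 fell by 0.42, CYFIP1 by 0.38, WASF2 by 0.33 and BRK1 by 0.22, while ABI1 was at -0.06 (edgeR adjusted p = 0.56). With library totals alone that median became -0.02, with 3 lower. In the shTMEM45A libraries 7 of the 10 were lower and 2 higher, with a median of -0.64. CYFIP1, the subunit that binds RAC1, fell by 1.53, from 121.3 CPM in NC to 41.9 and 42.2 CPM. WASF3 fell by 1.33, WASF2, which activates Arp2/3, by 1.21, and ABI1 by 0.55. BRK1, the smallest subunit, went the other way, from 149.1 CPM in NC to 312.6 and 314.1 CPM, a rise of 1.07. RAC1 rose by 0.16, a direction that was absent with library totals alone (-0.03).

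The Arp2/3 complex downstream was mixed. Of 10 subunit genes, ARPC5L rose by 0.29 and ACTR2 fell by 0.15 in the libraries labelled shSHCBP1, the latter a call lost without any of 8 libraries (adjusted p = 0.0604 to 0.199), and the median was 0.02. In the shTMEM45A libraries 6 rose and 3 fell, with a median of 0.33. ARPC1A and ARPC4 rose by 1.93 and 1.82, and the actin-related proteins ACTR2 and ACTR3B fell by 0.93 and 0.22.

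**Figure D4:**
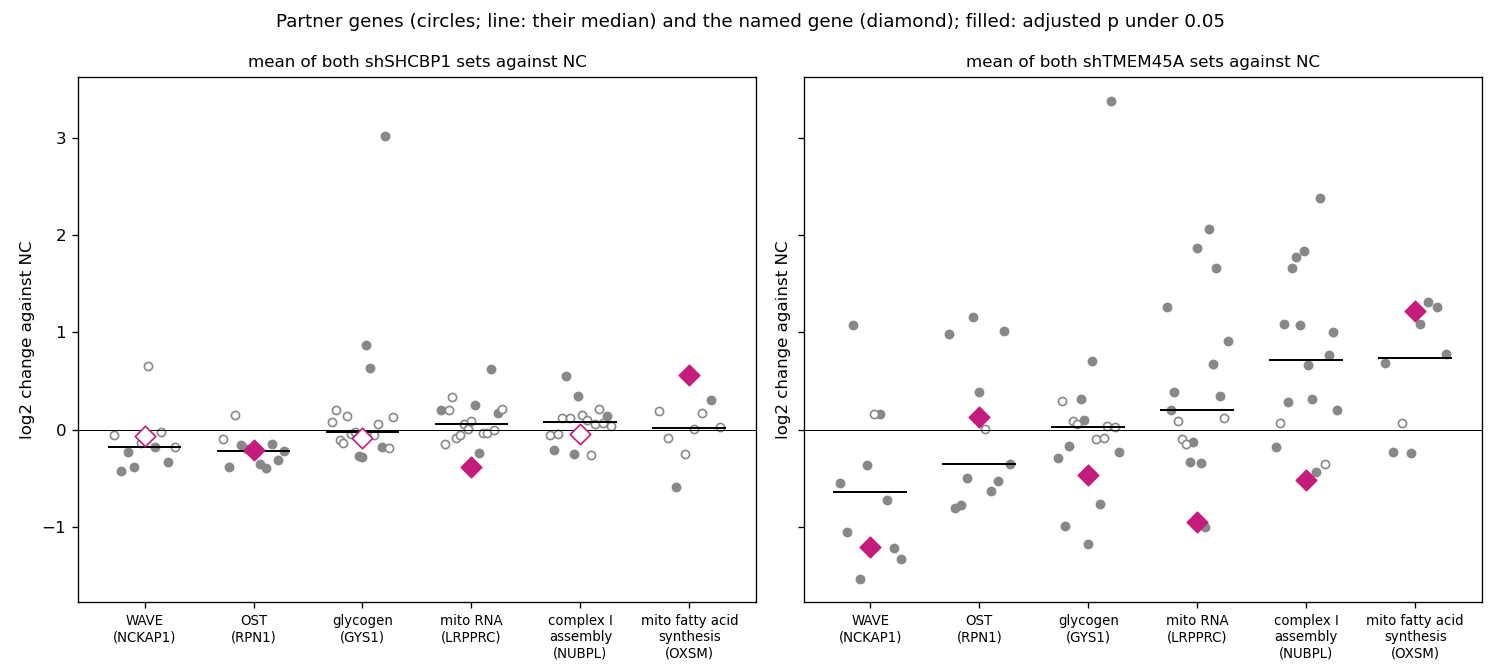
Log2 change against NC of the listed partner genes (circles, with a line at their median) and of the member they go with (diamond), for the mean of both shSHCBP1 sets and of both shTMEM45A sets; filled symbols passed at an adjusted p under 0.05. NCKAP1 at -1.20 lies below the WAVE median of -0.64, LRPPRC and NUBPL lie below 0 where the medians of their lists are 0.20 and 0.72, and OXSM at 1.22 lies above the median of 0.73 of its list.

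GYS1 is the glycogen synthase of tissues other than liver. NC stood at 131.3, 122.6 and 143.0 CPM. With shSHCBP1_1 the libraries stood at 136.4, 133.0 and 121.4 CPM and the shSHCBP1_2 libraries at 116.7, 118.5 and 122.0 CPM. The first group overlapped NC and the second lay just below its lowest library. The set 4 libraries stood at 104.8, 91.3 and 91.8 CPM and set 2 at 96.9, 93.0 and 97.1 CPM, all below the other groups. The log2 change was -0.02 (SE 0.06, edgeR adjusted p = 0.855) in shSHCBP1_1 and -0.15 (SE 0.06, edgeR adjusted p = 0.0623) in shSHCBP1_2. It was -0.46 (SE 0.06, edgeR adjusted p = 1.3e-07) in set 4 and -0.47 (SE 0.06, edgeR adjusted p = 1.0e-07) in set 2. The value of shSHCBP1_2 passed with RLE size factors (-0.23, adjusted p = 0.00453), with DESeq2 (adjusted p = 0.00257), in a fit of those groups alone (adjusted p = 0.00903) and without NC replicate 2 (-0.20, adjusted p = 0.0254).

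GYS2, the liver synthase, had 0 counts in every library, so GYS1 was the only glycogen synthase detected. Of the 17 glycogen genes tested out of 20 listed, 3 rose and 3 fell for shSHCBP1, with a median log2 change of -0.03, and 4 rose and 6 fell for shTMEM45A, with a median of 0.03. The branching enzyme GBE1 was at -0.10 (edgeR adjusted p = 0.354) for shSHCBP1 and fell by 0.99 for shTMEM45A, from 31.2 CPM in NC to 16.8 and 14.8 CPM. The primer protein GYG1 did not pass in either, at -0.05 and 0.06 (edgeR adjusted p = 0.662 and 0.445), and neither did the phosphorylase PYGB, at 0.06 and -0.09 (adjusted p = 0.449 and 0.149). The phosphorylase PYGL fell by 0.18 for shSHCBP1 and was at 0.04 (edgeR adjusted p = 0.432) for shTMEM45A. PYGM, the muscle phosphorylase, rose from a very low level, from 18 counts in the NC libraries together to between 139 and 199 in each set, log2 changes of 3.02 and 3.38. PPP1R3B, which targets a phosphatase to glycogen, rose by 0.87 and 0.71. The phosphoglucomutase PGM2 fell by 0.28 and 1.17, the first lost without NC replicate 1 (adjusted p = 0.0579), and PGM1 fell by 0.27 for shSHCBP1.

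Of the 7 genes of glucose uptake and its first steps, 1 rose and 4 fell for shSHCBP1, with a median of -0.25. With library totals alone, 1 rose and 1 fell there, with a median of -0.10. For shTMEM45A 1 rose and 6 fell, with a median of -0.34. SLC2A1, the main glucose carrier of cultured cells, rose by 0.17 for shSHCBP1 (edgeR adjusted p = 0.00611), a call lost with RLE size factors (adjusted p = 0.107). It rose by 0.11 for shTMEM45A (edgeR adjusted p = 0.0414), a call lost without any of 5 libraries (adjusted p = 0.0522 to 0.128) and turned to -0.08 with library totals alone. GPI fell by 0.45 and the carrier SLC2A3 by 0.33 for shSHCBP1, the latter lost without NC replicate 2 (adjusted p = 0.11). HK2, the inducible hexokinase, fell by 1.24 and the carrier SLC2A12 by 1.63 for shTMEM45A.

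LRPPRC holds mitochondrial messenger RNAs stable, in a complex with SLIRP. Its NC libraries were nearly identical, at 313.6, 314.6 and 312.2 CPM. The shSHCBP1_1 libraries were at 240.4, 246.6 and 234.7 CPM and the shSHCBP1_2 libraries at 240.5, 238.0 and 242.5 CPM, all well below NC. Set 4 was at 158.5, 172.6 and 157.5 CPM and set 2 at 163.4, 178.4 and 145.2 CPM, lower again, with no overlap with the other 3 groups. The log2 change was -0.38 in each shSHCBP1 set (SE 0.05, edgeR adjusted p = 5.5e-06 and 2.1e-06), -0.94 in set 4 (SE 0.06, edgeR adjusted p = 9.9e-16) and -0.95 in set 2 (SE 0.06, edgeR adjusted p = 7.7e-16). Its level was thus 0.767 of NC for shSHCBP1 and 0.519 of NC for shTMEM45A, and every alternative that gave a test kept the direction and the calls against NC.

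No fall was called for the partner of LRPPRC. SLIRP stood at 72.8 ± 4.03 CPM in NC and at 72.8 ± 0.879 and 69.7 ± 3.47 CPM in the shSHCBP1 sets, a log2 change of -0.03 (edgeR adjusted p = 0.689). It rose to 288.6 ± 17.1 CPM in set 4 and 320.5 ± 20.1 CPM in set 2, by 2.06 (edgeR adjusted p = 1.5e-24). Of 17 listed genes of mitochondrial RNA handling, 4 rose and 1 fell for shSHCBP1, with a median of 0.06, and 9 rose and 4 fell for shTMEM45A, with a median of 0.20 that became 0.01 with library totals alone. TACO1, a translational activator of cytochrome oxidase, rose by 0.63 for shSHCBP1, and PTCD1 by 1.87 for shTMEM45A. PTCD3, a protein of the mitochondrial ribosome, fell in both, by 0.24 and 0.997. PTCD2 rose by 0.25 for shSHCBP1, a call lost without any of 8 libraries (adjusted p = 0.0518 to 0.135), and fell by 0.34 for shTMEM45A.

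NUBPL delivers iron-sulfur clusters to complex I. NC stood at 24.6, 23.7 and 23.2 CPM. In shSHCBP1_1 the values were at 22.8, 21.7 and 23.8 CPM and the shSHCBP1_2 libraries at 24.2, 23.6 and 22.9 CPM, both overlapping NC. In set 4 the values were at 17.5, 19.0 and 19.2 CPM and set 2 at 15.2, 17.3 and 12.7 CPM, below the rest and apart from each other. The log2 change was -0.07 (SE 0.10, edgeR adjusted p = 0.708) in shSHCBP1_1 and -0.02 (SE 0.10, edgeR adjusted p = 0.916) in shSHCBP1_2, and it was -0.36 (SE 0.10, edgeR adjusted p = 0.00219) in set 4 and -0.66 (SE 0.10, edgeR adjusted p = 1.5e-06) in set 2.

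Other assembly factors of complex I mostly rose where NUBPL fell. Of 16 listed factors and cytosolic relatives of NUBPL, 3 rose and 2 fell for shSHCBP1, with a median log2 change of 0.08, and 12 rose and 2 fell for shTMEM45A, with a median of 0.72. NDUFAF1 and NDUFAF4 rose by 0.56 and 0.35 for shSHCBP1, and NDUFAF3 and COA1 fell by 0.25 and 0.21. For shTMEM45A, NDUFAF8 rose by 2.38, from 26.3 CPM in NC to 132.9 and 140.1 CPM, and NDUFAF4 by 1.84. NDUFAF7 fell by 0.43 and ACAD9 by 0.18, the latter a call lost without 1 library (adjusted p = 0.123).

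OXSM is the condensing enzyme of mitochondrial fatty acid synthesis, the route to lipoic acid. It was low and variable in NC, at 8.61, 4.76 and 6.63 CPM, from 124, 68 and 96 counts. With shSHCBP1_1 the libraries stood at 10.4, 9.71 and 9.12 CPM and the shSHCBP1_2 libraries at 10.9, 9.81 and 9.26 CPM. Both groups lay above all NC libraries and overlapped each other. The set 4 libraries stood at 13.8, 14.2 and 16.0 CPM and set 2 at 18.7, 14.4 and 16.3 CPM, above all other groups. The log2 change was 0.55 (SE 0.16, edgeR adjusted p = 0.0161) in shSHCBP1_1, 0.58 (SE 0.16, edgeR adjusted p = 0.00658) in shSHCBP1_2, 1.14 (SE 0.16, edgeR adjusted p = 2.0e-07) in set 4 and 1.30 (SE 0.16, edgeR adjusted p = 1.2e-08) in set 2.

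The rises of OXSM in the libraries labelled shSHCBP1 rest on the lowest NC library. Without NC replicate 2 the log2 change was 0.35 (adjusted p = 0.153) in shSHCBP1_1, 0.39 (adjusted p = 0.0803) in shSHCBP1_2 and 0.37 (adjusted p = 0.0662) in the mean of both, and the call in shSHCBP1_1 was also lost without its replicate 1 (adjusted p = 0.0719). The rises in the shTMEM45A sets passed under every alternative that gave a test.

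Of the 8 other genes of mitochondrial fatty acid synthesis and lipoylation, 1 rose and 1 fell for shSHCBP1, with a median of 0.02. MCAT, which supplies the malonyl group to OXSM, rose by 0.31, and HSD17B8, a subunit of the reductase that follows it, fell by 0.59. For shTMEM45A 5 rose and 2 fell, with a median of 0.73. MCAT rose from 24.2 CPM in NC to 54.4 and 62.2 CPM, by 1.26, and MECR, which completes the cycle, rose by 0.78 after a value of 0.03 (edgeR adjusted p = 0.756) for shSHCBP1. LIPT2, which transfers the finished chain, rose by 1.32, while LIAS, which makes lipoic acid from it, fell by 0.24 and CBR4, the partner of HSD17B8, by 0.23. The fall of LIAS was lost without any of 5 libraries (adjusted p = 0.0516 to 0.182) and that of CBR4 without 1 (adjusted p = 0.332).

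Between the 2 hairpins to the same gene, few of the 8 genes passed. For shSHCBP1_2 against shSHCBP1_1 only SLC3A2 passed, beside 0.835% of all genes, with a log2 difference of 0.20 (SE 0.05, edgeR adjusted p = 0.0292), and this call was lost without any of the 6 libraries (adjusted p = 0.112 to 0.152). The other 7 ran from -0.13 for GYS1 to 0.27 for SLC7A11. For set 2 against set 4 no member passed with edgeR, beside 5.27% of all genes, although 3 had an unadjusted p under 0.05 and 1, SLC7A11, passed with DESeq2 (adjusted p = 0.0493). SLC7A11 was higher in set 2 by 0.46 (SE 0.15, edgeR adjusted p = 0.0633) and NUBPL stood at -0.30 (SE 0.11, edgeR adjusted p = 0.103). Without set 2 replicate 3, its lowest library, SLC7A11 passed at 0.64 (adjusted p = 0.00469), and without set 2 replicate 2, SLC3A2 and NUBPL passed at 0.15 and -0.41 (adjusted p = 0.024 and 0.022).

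The shTMEM45A libraries differed from the libraries labelled shSHCBP1 in all 8 genes, beside 79.3% of all genes, in a comparison that does not use NC but again sets table against table. The differences were largest for NCKAP1, at -1.15 (SE 0.05, edgeR adjusted p = 2.5e-20), and SLC3A2, at 0.99 (SE 0.03, edgeR adjusted p = 3.3e-22). OXSM, SLC7A11 and RPN1 were higher by 0.66, 0.50 and 0.34, and LRPPRC, NUBPL and GYS1 were lower by 0.56, 0.47 and 0.38. With library totals alone the differences in SLC7A11 and RPN1 no longer passed, at 0.16 and -0.01, under a scaling that moved the median of all genes from -0.12 to -0.47.

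The choice of scaling set the limits for the small changes. With library totals alone, the median log2 change of all genes moved from 0.01 to 0.16 for shSHCBP1 and from -0.05 to -0.24 for shTMEM45A, so changes within these sizes have no firm sign. A change of scaling moves all genes by nearly the same amount, so a gene's place relative to that median cannot test its direction. By sign alone, the rises of SLC7A11, SLC3A2 and OXSM and the falls of LRPPRC held under the 4 scalings. So did the falls of NCKAP1, GYS1 and NUBPL for shTMEM45A. With library totals alone, RPN1 changed sign for shTMEM45A, and NCKAP1, GYS1 and NUBPL did so for shSHCBP1. Among the named partner genes, 11 of the calls for shSHCBP1 were lost with library totals alone, all of them falls: ACTR2, ATF4, BRK1, COA1, NDUFAF3, PGM2, PTCD3, PYGL, SLC2A3, SLC38A2 and STT3B. For shTMEM45A, 3 rises were lost in this way (RAC1, SLC2A1 and SLC38A2), and 6 falls with upper quartile scaling (ACAD9, ACTR3B, CBR4, LIAS, SLC7A5 and SLC7A8).

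**Figure D5:**
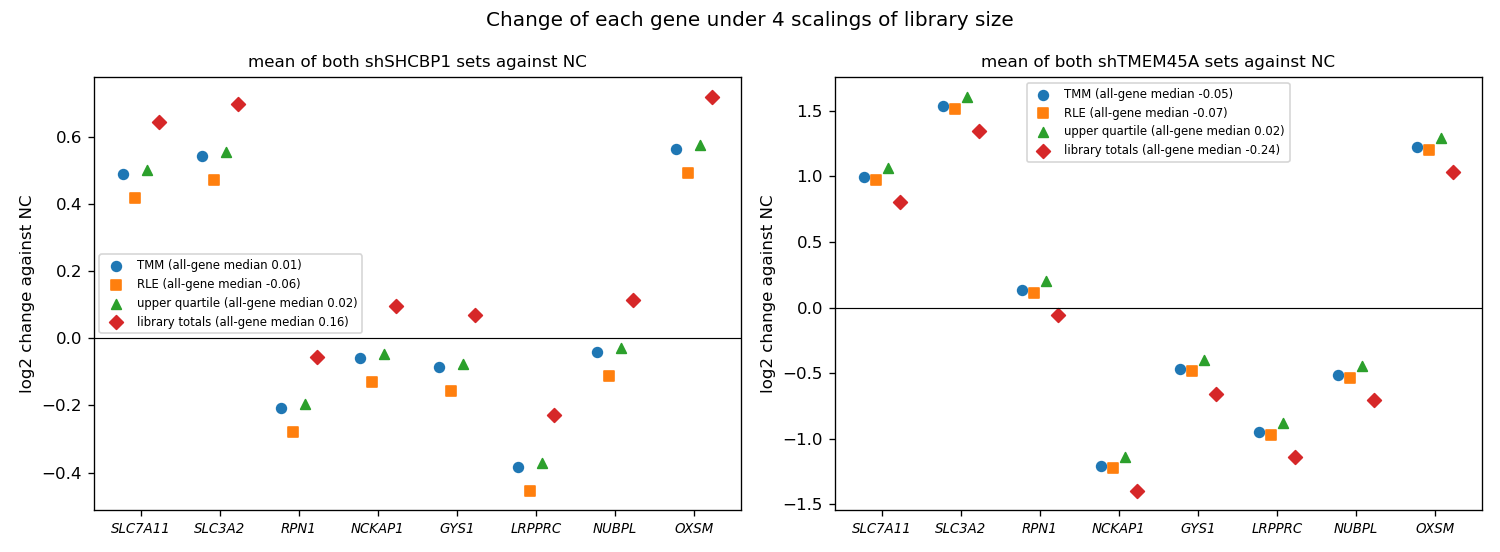
Log2 change against NC of each of the 8 genes under 4 scalings of library size (symbols), for the mean of both shSHCBP1 sets and of both shTMEM45A sets; the legend gives the median of all genes under each. Library totals alone shift the shSHCBP1 values up and the shTMEM45A values down, so that RPN1 changes sign for shTMEM45A and NCKAP1, GYS1 and NUBPL change sign for shSHCBP1.

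For each member, the 2 genes with the most similar pattern over the 15 libraries were sought among 11806 genes, by the root mean square difference of log2 levels centred on each gene's own mean. RPN1 was nearest to SEC13, a coat protein of vesicles leaving the endoplasmic reticulum (0.026), and to C1orf43 (0.047). SLC3A2 was nearest to RBM42 (0.066) and TGIF2 (0.079), NCKAP1 to GNPNAT1 (0.068) and CDC40 (0.079), and LRPPRC to STAG2, a cohesin subunit (0.071), and MPRIP (0.073). GYS1 was nearest to CRAT, carnitine acetyltransferase (0.062), and INTS3 (0.074), and NUBPL to ODF2 (0.067) and LOXL3 (0.075). The low transcripts SLC7A11 and OXSM had the largest distances: UPF2 and ZNF92 were at 0.13 and 0.16 from SLC7A11, and TMEM150C and LNP1 at 0.18 from OXSM. These distances are not scaled to how much a member itself varied. The SD of its log2 level over the 15 libraries was 0.16 for RPN1, 0.22 for GYS1, 0.44 for SLC7A11, 0.52 for OXSM and 0.64 for SLC3A2. The step between the 2 tables dominates these patterns, so nearness is a description of these libraries.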

How the data were processed

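Per the file headers and values, the authors deposited raw read counts by gene symbol in 2 tables. The labels name the mouse and the submitters' processing notes the build mm10, whereas the symbols are human, and the tables were read as human counts. Aligner, counting program and annotation: not given in the sources used here. Of the 58735 entries per table, 1768 on 200 names that repeat or read as dates were left out. Column names gave the library for 12 columns and only the group for the 3 of set 4. Libraries within each group differed by more than sampling noise, so none was merged.

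The filter was filterByExpr (count minimum 10, total minimum 15), and 1 model with TMM scaling covered the 15 libraries (edgeR 4.0.16, R 4.3.3). Each of 9 comparisons took edgeR's quasi-likelihood test, adjusted by Benjamini-Hochberg over 19051 genes, with a threshold of 0.05; adjusted p-values printed without a tool are from edgeR. The model was run on simulated data drawn from the NC libraries, with a small share of genes changed in a single group. That check does not cover shifts as wide as those of the shTMEM45A libraries. The chain ratio was tested by exact permutation over libraries. Named partners are a set chosen by role, plus those with the 2 largest rises and the 2 largest falls that passed in each list and target. The 8 genes and the lists were chosen with earlier results of these data known. Alternatives were other scalings (RLE, upper quartile, library totals), filters, DESeq2 1.42.0, the compared groups alone, a replicate block and leaving out each library. A count of 3 is at most 0.218 CPM, and intervals cover counting error only. No sequence is printed, because the reference used here is that of the mouse. A result for 1 partner gene is not reported here.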

Additional observations from a re-analysis of the deposited data

Results flagged for a closer look

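The change in the shTMEM45A libraries and in the libraries labelled shSHCBP1 differed by a direct test for each of the 8 genes (edgeR, mean of both sets against mean of both sets, beside 79.3% of all genes). The log2 difference was 0.50 for SLC7A11, 0.99 for SLC3A2, 0.34 for RPN1, -1.15 for NCKAP1, -0.38 for GYS1, -0.56 for LRPPRC, -0.47 for NUBPL and 0.66 for OXSM. Target and table cannot be told apart here.

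Between the 2 hairpins to SHCBP1, SLC3A2 differed by a log2 value of 0.20, with each library of shSHCBP1_2 above each library of shSHCBP1_1.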

How the results depend on the processing

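With library totals alone, values turned sign as follows. For shSHCBP1_1, NCKAP1 was at 0.044, GYS1 at 0.12 and NUBPL at 0.078. For shSHCBP1_2 they were at 0.15, 0.014 and 0.15, and for the mean of both at 0.094, 0.068 and 0.11. RPN1 was at -0.047 in set 4, -0.073 in set 2, -0.060 in the mean of both and -0.0055 against shSHCBP1. Among partners of the shSHCBP1 mean, ABI1 was at 0.096, STT3B at 0.0095, DAD1 at 0.055, GYG1 at 0.11, GBE1 at 0.050, SLIRP at 0.12, ATF4 at 0.064 and ACTR2 at 0.0083. Among those of the shTMEM45A mean, RPN2 was at -0.18, GYG1 at -0.13, PYGL at -0.15, SLC2A1 at -0.083, SLC38A2 at -0.0025 and RAC1 at -0.030. With RLE size factors and with DESeq2, PYGB was at -0.011 and MECR at -0.046 for shSHCBP1, and RPN2 at -0.012 for shTMEM45A, where it was at -0.018 with no filter. With upper quartile scaling GYS1 in shSHCBP1_1 was at 0.0021. Leaving out 1 library took GYS1 in shSHCBP1_1 from -0.074 to 0.044, NCKAP1 in shSHCBP1_2 from -0.073 to 0.010, NUBPL there from -0.038 to 0.0066, SLIRP for shSHCBP1 from -0.063 to 0.013 and RPN2 for shTMEM45A from -0.0067 to 0.024. The size as reported was at most 0.19 (SLC38A2) in all of these except RPN1 against shSHCBP1, at 0.34; the cause was not tested.

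The count of the 8 genes passing for shSHCBP1_2 against shSHCBP1_1 was 1 as reported, 0 with upper quartile scaling, 2 in a fit of those groups alone and 0 to 0 without any single library. For set 2 against set 4 it was 0 as reported, 1 with the stricter filter, 1 with DESeq2 and 0 to 2 without any single library. The log2 ratio of SLC7A11 to SLC3A2 for shTMEM45A, -0.56 as reported, ran from -0.67 to -0.50 without any single library. With the replicate block, which leaves out set 4, it was -0.39. The counts against NC stayed within 1.5 times their reported values.

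The split of calls moved with the scaling: for shSHCBP1, 48.8% of calls were higher with TMM, 32.8% with RLE and 83.0% with library totals, and for shTMEM45A against shSHCBP1, 44.3% with TMM and 29.7% with library totals. For shSHCBP1_2 against shSHCBP1_1 it was 59.7%, with 80.7% under library totals and 41.0% under upper quartile scaling. Same-numbered libraries correlated in their deviations at -0.07 to 0.14, so the numbers do not pair the libraries. The replicate block left the count of members passing at 4, 5 and 5 for shSHCBP1_1, shSHCBP1_2 and their mean and at 8 for set 2; no block was possible with set 4, whose columns carry no labelled number. A length correction with human lengths was not run. As an alternative chosen after seeing the data, a trend on the lengths of mouse genes of the same name was subtracted. Only 66.7% of the tested genes had one, so the check is void over all genes and supports no call. For shTMEM45A it moved SLC7A11 from 0.99 to 1.78, above SLC3A2 (1.54 to 1.52), RPN1 from 0.13 to 0.28, GYS1 from -0.46 to -0.30 and LRPPRC from -0.95 to -0.63. Depth limits SLC7A11 and OXSM most, at 68 to 124 counts per NC library.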
